A study of Homo sapiens with 16 samples.

Results

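The 8 untreated cultures carrying a mutant PCSK5 allele, 4 wells of M452I and 4 of T288P, were set against the 4 untreated cultures carrying the wildtype allele (WT), 12 of the 16 libraries of the series. They were chosen by their labels alone. The question was which transcripts shift in common when the allele given back is not the wildtype one. RNA was poly(A)-selected and sequenced from matrigel cultures of MCF10DCIS.com, a human breast cell line of the MCF10A series that models ductal carcinoma in situ, the stage before invasion. All groups come from 1 PCSK5-/- clone, made with Cas9 and a guide to exon 4. That clone received a V5-tagged, guide-resistant PCSK5 allele driven by a tetracycline-regulated promoter, and hygromycin selection gave 1 polyclonal line for each allele. The cultures were seeded at 5000 cells per well in medium with 5 ng/ml EGF and 2% matrigel. Doxycycline at 1 µg/ml switched on the allele from day 4, and RNA was taken at day 8. In none of these 12 wells was GDF11 added. The remaining group, T288P with 250 ng/ml recombinant mature GDF11 throughout, is given beside them as levels. Each allele is 1 line, so the allele and the line that carries it cannot be told apart, and wells of a line measure the spread between cultures, not between independent lines.

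PCSK5 is a proprotein convertase, a secreted serine protease that cuts the precursors of growth factors and other proteins at basic sites. Among its substrates is the precursor of GDF11, a ligand of the TGF-beta family. Mature GDF11 binds activin-type receptors, which phosphorylate SMAD2 and SMAD3, and these enter the nucleus with SMAD4 and change transcription. In breast epithelium, TGF-beta family signals act on cell cycle arrest, matrix production and the integrity of cell junctions.

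Library totals ran from 28.5 to 50.8 M counts. The epithelial markers were high in every well, and their summed level was 7136 to 7365 counts per M (CPM, scaled by library composition) in WT and 5949.9 to 8646 in the mutant wells. The fibroblast markers summed to 5.02 to 5.74 CPM in WT and 3.95 to 5.67 in the mutant wells, nearly all of it COL1A1, with COL3A1, PDGFRA, PDGFRB and LUM at 0 in all 12 wells. The endothelial and adipocyte lists each stayed at 1.40 CPM or less, with CDH5 and ADIPOQ at 0. In the mutant group 2 wells stood apart from their lines. On the first principal component of all 16 libraries, the WT wells scored -39.6 to -5.03 and the T288P+GDF11 wells 44.1 to 63.6. The score of M452I replicate 4 was 37.5, while the rest of that line lay between -44.7 and -32.9. T288P replicate 1, at -43.0, stood away from its line, which spanned 2.15 to 8.81. Results are therefore given with and without these 2 wells.

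With both alleles weighted equally against WT, 8 of 16790 genes passed the edgeR quasi-likelihood test at an adjusted p under 0.05, 0.0476% of those tested. TGFBI and IL1B rose (0.0119%), and PADI2, PADI1, MYH14, LXN, PPL and GPR22 fell (0.0357%). Without adjustment, 1512 genes had p under 0.05, 699 higher and 813 lower. For all 8 genes, each of the 8 mutant wells lay beyond the 4 WT wells on 1 side, which held for 274 genes of 16790 (1.63%): 82 had every mutant well above WT (0.488%) and 192 every mutant well below it (1.14%). These shares and the 0.0476% called are the background for the counts of called and separated members of the gene lists below. Fitted to the 12 untreated libraries with the 8 mutant wells as a single group, the test called 9 genes (0.0561%), the same 8 among them. The ninth was TFCP2L1, a transcription factor of the grainyhead-like family (log2 change -0.48, adjusted p = 0.029 by edgeR in that fit). DESeq2 called 121 genes (0.721%), 29 higher and 92 lower, among them the same genes but GPR22, for which it gave no adjusted p. With RLE in place of TMM scaling, edgeR called 16 (0.0953%), 2 higher and 14 lower. Without the 2 outlying wells it called 119 (0.691%), 26 higher and 93 lower, and all 8 held (adjusted p up to 0.00991). The count was 28 without M452I replicate 4 alone, 15 without T288P replicate 1 alone, 13 without T288P replicate 4 and 4 without WT replicate 2.

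**Figure D1:**
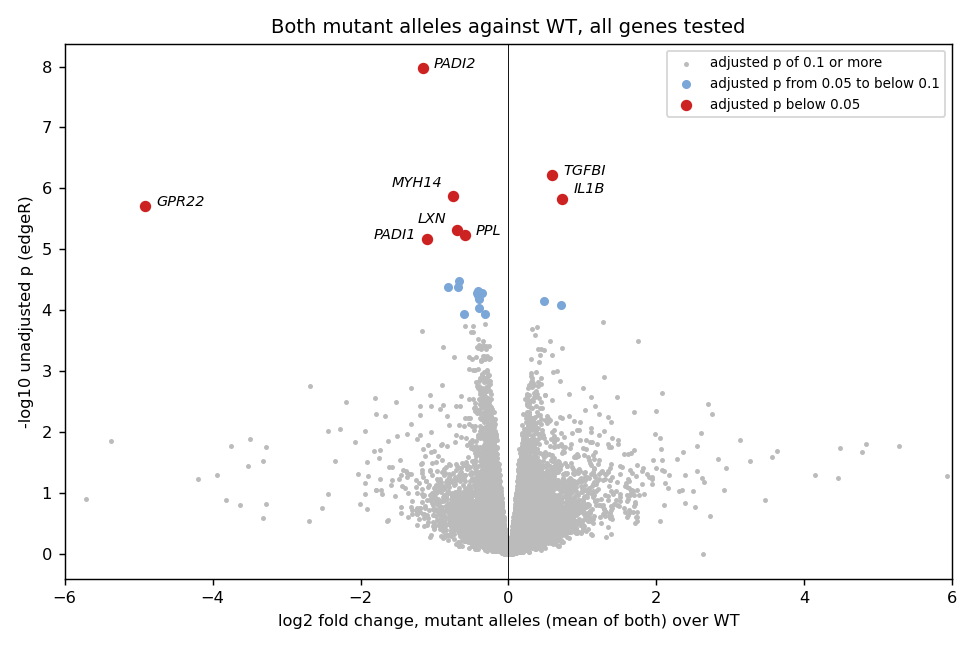
Log2 fold change of the mean of both mutant alleles over WT (x axis) against -log10 of the unadjusted edgeR p (y axis) for the genes tested, with 6 genes beyond the x axis not drawn. The 8 named red points have an adjusted p under 0.05, with TGFBI and IL1B to the right, and the blue points, an adjusted p from 0.05 to below 0.1, lie mostly to the left.

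The sequences just before the start sites of 3 called genes are shown: the neighbours PADI2 and PADI1, the largest falls among genes above the naming level, and MYH14, a myosin gene. Each run is the 250 bases before the RefSeq start on build GRCh38.p14, 5′ to 3′ on the gene's strand. The regions are chr1:17119452-17119701, minus strand, for PADI2, chr1:17204878-17205127, plus strand, for PADI1 and chr19:50203372-50203621, plus strand, for MYH14, whose GENCODE model also starts further upstream. Capitals mark a match, on either strand, to TGANTCA (the AP-1 site), GTCTG (which holds the core that SMAD3 and SMAD4 bind), AACCNGTT (grainyhead-like factors) or GTGGGAA (RBPJ, the DNA-binding partner of Notch).
PADI2: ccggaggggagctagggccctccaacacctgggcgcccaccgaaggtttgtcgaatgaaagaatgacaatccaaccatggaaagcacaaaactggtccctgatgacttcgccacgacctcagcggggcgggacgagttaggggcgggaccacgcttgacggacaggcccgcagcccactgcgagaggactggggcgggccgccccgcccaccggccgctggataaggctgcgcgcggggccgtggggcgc
PADI1: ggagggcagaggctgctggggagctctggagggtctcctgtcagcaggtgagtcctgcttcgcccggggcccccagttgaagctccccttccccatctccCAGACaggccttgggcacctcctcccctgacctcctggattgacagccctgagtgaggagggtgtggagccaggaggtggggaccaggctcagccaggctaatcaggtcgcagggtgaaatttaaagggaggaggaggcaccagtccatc
MYH14: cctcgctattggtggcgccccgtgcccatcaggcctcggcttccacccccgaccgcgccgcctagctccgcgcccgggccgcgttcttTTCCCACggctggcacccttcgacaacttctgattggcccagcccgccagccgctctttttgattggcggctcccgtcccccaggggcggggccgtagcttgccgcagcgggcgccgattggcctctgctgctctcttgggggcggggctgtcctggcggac
A RefSeq promoter sequence was at hand for 7 of the 8 called genes, all but PPL. GTCTG was found in 1 of the 7, PADI1, and 37.8% of all 27305 promoters of this length held it. GTGGGAA was found in 1, MYH14 (5.46% of all promoters). TGANTCA (6.60% of all) and AACCNGTT (1.48% of all) were found in 0 of the 7. Of the 13 genes next by p described below, 10 had a sequence, and GTCTG was found in 7 of these, TGANTCA in 2 and the other motifs in 0. The matches describe these windows and nothing outside them.

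PCSK5 itself (ENSG00000099139; chromosome 9, 75890644 to 76362339, coordinates of GENCODE release 29 on GRCh38 throughout) was transcribed in every well. Its level was 53.3, 37.3, 57.9 and 33.1 CPM in the WT wells and 25.6 to 66.8 CPM (median 34.0) in the 8 mutant wells, so the groups overlapped (log2 change -0.24 ± 0.29 SE, adjusted p = 0.849 by edgeR). Reads of the added allele and of the cut locus fall on the same gene, and transcript levels are no measure of convertase activity. The precursor's gene GDF11 (ENSG00000135414; chromosome 12, 55743280 to 55757278) was at 5.81 ± 1.63 CPM in WT and 5.75 ± 0.986 in the mutants (SD, n = 4 and n = 8 wells of 2 lines; log2 change -0.02 ± 0.17 SE, adjusted p = 0.983 by edgeR).

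Of the ligands, receptors and SMADs of the GDF11 pathway, 0 of 20 tested members passed the edgeR test with all wells. Their median log2 fold change was -0.0668, against 0.0283 over all genes tested. DESeq2 called 1 of the 20 lower (0.721% of all genes called). With the ribosomal share of counts as a covariate, edgeR called 2 higher and 2 lower (2.7% of all genes called). The member with all 8 mutant wells below WT was SMAD3 (ENSG00000166949; chromosome 15, 67063763 to 67195195), the effector that carries the signal to DNA. It stood at 163, 157, 153 and 141 CPM in WT and 116 to 134 CPM (median 124) in the 8 mutant wells, without passing the test (log2 change -0.31 ± 0.06 SE, adjusted p = 0.0928 by edgeR). Without the 2 outlying wells its adjusted p was 0.0114 by edgeR, and with all wells it was 0.000286 by DESeq2. LTBP3, which binds latent TGF-beta in the matrix, ran from 23.3 to 27.3 CPM in WT and 15.9 to 22.5 in the mutant wells (log2 change -0.37 ± 0.09 SE, adjusted p = 0.152 by edgeR). LTBP3 passed without the 2 outlying wells (adjusted p = 0.0420 by edgeR), and with all wells by DESeq2 (adjusted p = 0.00789).

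TGFBI (ENSG00000120708; chromosome 5, 136028895 to 136063818), a secreted matrix protein that TGF-beta induces, was at 80.8, 69.2, 79.1 and 73.9 CPM in the WT wells and 99.6 to 136 CPM (median 115) in the 8 mutant wells. Every mutant well was higher than every WT well, and the mean rose 1.51-fold (log2 change 0.59 ± 0.08 SE, adjusted p = 0.00502 by edgeR). It was the 1 called member of 34 tested SMAD2/3 targets, where 0.0476% of all genes were called. DESeq2 called 1 of the 34 higher and 1 lower (0.721% of all genes called). With the ribosomal share of counts as a covariate, edgeR called 3 higher and 2 lower (2.7% of all genes called). As a list these targets had a median of -0.118, with 12 members above 0 and 22 below, against 9293 above and 7497 below over all genes tested. Beside TGFBI, the targets whose 8 mutant wells all lay outside WT were LTBP3 and the basement membrane collagen gene COL4A2, both lower. Such separation held for 1.63% of all genes. COL4A2 ran from 64.4 to 72.6 CPM in WT and 52.1 to 62.5 in the mutant wells (log2 change -0.22 ± 0.07 SE, adjusted p = 0.333 by edgeR).

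PADI2 and PADI1 are peptidylarginine deiminases, calcium-dependent enzymes that turn arginine in proteins into citrulline and act on keratins and filaggrin in stratified epithelium. PADI2 (ENSG00000117115; chromosome 1, 17066761 to 17119435) was at 13.2, 18.8, 15.2 and 16.1 CPM in WT and 5.36 to 8.70 CPM (median 6.99) in the 8 mutant wells. The lowest WT well was above the highest mutant well, and the mean was 2.22-fold lower (log2 change -1.15 ± 0.12 SE, adjusted p = 0.00018 by edgeR). PADI1 (ENSG00000142623; chromosome 1, 17205126 to 17246005) was at 4.96, 6.31, 5.20 and 6.47 CPM in WT and 2.04 to 4.06 CPM (median 2.67) in the 8 mutant wells, 2.15-fold lower (log2 change -1.11 ± 0.18 SE, adjusted p = 0.0142 by edgeR). The call of PADI1 was lost without WT replicate 2 (adjusted p = 0.118 by edgeR), without WT replicate 4 (0.074) and with the replicate number as a block (0.0633), while that of PADI2 held in every alternative run. They were the 2 members of the family that had enough counts to be tested, out of 5. Of the 10 tested genes within 500 kb of PADI2, PADI1 was the only one called or with separated wells. SDHB, which encodes an iron-sulfur subunit of succinate dehydrogenase and lies in the same window, had 84.2 CPM in WT and 86.7 in the mutants.

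PPL (ENSG00000118898; chromosome 16, 4882507 to 4960741), periplakin, links intermediate filaments to desmosomes and the cornified envelope. It was at 84.1, 78.8, 85.0 and 68.0 CPM in WT and 40.8 to 61.1 CPM (median 52.5) in the 8 mutant wells, 1.51-fold lower (log2 change -0.59 ± 0.09 SE, adjusted p = 0.0141 by edgeR). It was the 1 called gene of 26 tested genes of the cornified envelope and terminal differentiation, whose median was 0.00183. The keratin gene KRT80 was the other member with separated wells, at 6.47 to 10.6 CPM in WT and 2.08 to 6.40 in the mutant wells (log2 change -0.89 ± 0.24 SE, adjusted p = 0.257 by edgeR). Every mutant well lay below WT for 1.14% of all genes. The call of PPL was lost without WT replicate 1, 2 or 3 (adjusted p = 0.0796, 0.0751 and 0.0885 by edgeR).

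MYH14 (ENSG00000105357; chromosome 19, 50188186 to 50310544) encodes a heavy chain of non-muscle myosin II, the motor of the cortical actin belt. It was at 28.6, 24.6, 27.0 and 22.6 CPM in WT and 12.2 to 18.1 CPM (median 15.1) in the 8 mutant wells, 1.68-fold lower (log2 change -0.75 ± 0.11 SE, adjusted p = 0.00612 by edgeR). Of 30 tested actomyosin genes it was the 1 called. All 8 mutant wells also lay below WT for MYH9, the main myosin II heavy chain of most cells, at 600.3 to 643 CPM in WT and 432 to 563 in the mutant wells (log2 change -0.29 ± 0.07 SE, adjusted p = 0.228 by edgeR). The same held for the actin crosslinker ACTN4, the adhesion protein VCL and the unconventional myosin MYO1D, which makes 5 of 30 members against 1.14% of all genes. Their shifts were small, with log2 changes of -0.15 for ACTN4 (SE 0.07), -0.14 for VCL (SE 0.07) and -0.27 for MYO1D (SE 0.07). None of them passed the edgeR test with all wells. Without the 2 outlying wells MYH9 (adjusted p = 0.0163 by edgeR) and MYO1D (0.0409) passed, and ACTN4 and VCL did not. With DESeq2 and all wells MYH9 (adjusted p = 0.00643) and MYO1D (0.0171) passed too. The ACTN4 exons overlap a gene on the other strand over 14.2% of their bases and those of VCL over 11.1%. The list median was -0.0558. With the ribosomal share of counts as a covariate, 6 of the 30 were called lower (2.7% of all genes called).

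No junction gene passed the edgeR test with all wells, and most had values below 0. Of 30 tested genes of adherens and tight junctions, 28 had a negative log2 change and 0 were called, with a median of -0.111. Over all genes tested, 7497 of 16790 had a negative log2 change, the background for the sign counts of this and the later lists. The epithelial cadherin CDH1 was at 420.3, 458, 383 and 390.2 CPM in WT and 313 to 375 CPM (median 344) in the 8 mutant wells, separated but not called (log2 change -0.27 ± 0.07 SE, adjusted p = 0.251 by edgeR). AFDN, afadin, which ties nectins to actin, was at 241 to 277 CPM in WT and 212 to 240.4 in the mutant wells (log2 change -0.22 ± 0.08 SE, adjusted p = 0.398 by edgeR). These were the junction genes with every mutant well below WT, as in 1.14% of all genes. CDH1 passed with DESeq2 (adjusted p = 0.0145), the 1 junction gene that did. Without the 2 outlying wells 1 of the 30 was called lower, NECTIN4, an adhesion molecule of adherens junctions (log2 change -0.47, adjusted p = 0.0157 by edgeR). With the ribosomal share of counts as a covariate 8 of the 30 were called lower. That fit called 454 of 16790 genes (2.7%), 206 higher and 248 lower, and the fit without the 2 wells called 0.691%. Among 11 desmosome genes, 10 were negative and 0 called, with a median of -0.126. Desmoplakin, DSP, which anchors keratin to the plaque, was at 923 to 1096 CPM in WT and 776 to 922 in the mutant wells (log2 change -0.29 ± 0.09 SE, adjusted p = 0.333 by edgeR).

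IL1B (ENSG00000125538; chromosome 2, 112829751 to 112836903), the inflammatory cytokine interleukin-1 beta, was at 69.9, 65.0, 81.5 and 71.8 CPM in WT and 101 to 146 CPM (median 116) in the 8 mutant wells. All mutant wells were higher, 1.66-fold in the mean (log2 change 0.73 ± 0.10 SE, adjusted p = 0.00612 by edgeR). The call was lost without WT replicate 2 (adjusted p = 0.0682 by edgeR). It was the 1 called gene of 30 tested interleukin-1 family genes and NF-kB targets, whose median was 0.0353. LIF (ENSG00000128342; chromosome 22, 30240447 to 30246851), a cytokine of another family on the same list, was lower in every mutant well, at 49.2 to 59.9 CPM in WT and 37.7 to 45.7 in the mutant wells, and did not pass (log2 change -0.41 ± 0.08 SE, adjusted p = 0.062 by edgeR).

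**Figure D2:**
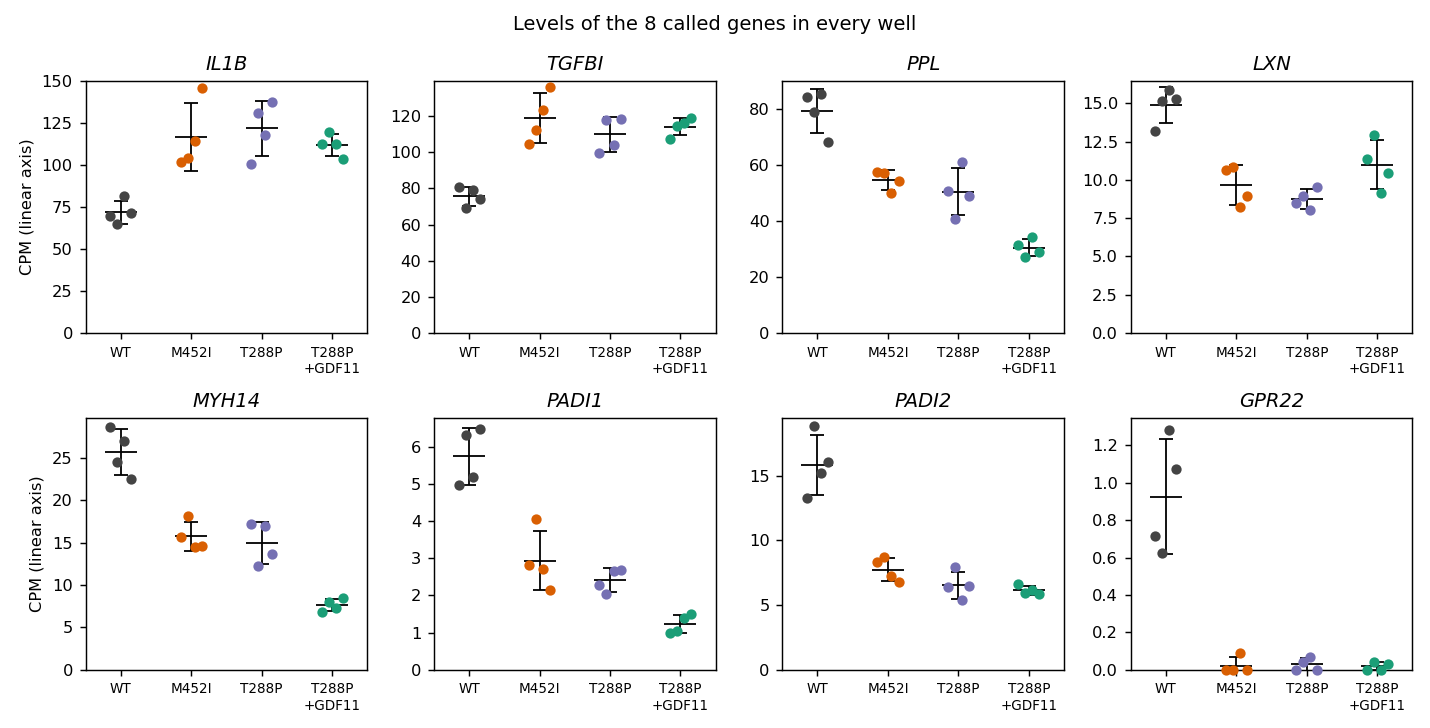
CPM (linear axis from 0) of the 8 called genes in every well of the 4 groups, with the mean and SD of 4 wells as a bar. For each gene the 4 M452I and 4 T288P wells lie on the same side of all 4 WT wells.

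LXN (ENSG00000079257; chromosome 3, 158645822 to 158672693), latexin, an inhibitor of metallocarboxypeptidases, was at 13.2, 15.1, 15.9 and 15.3 CPM in WT and 8.00 to 10.8 CPM (median 8.94) in the 8 mutant wells, 1.62-fold lower (log2 change -0.69 ± 0.11 SE, adjusted p = 0.0136 by edgeR). The call was lost without WT replicate 2, 3 or 4 (adjusted p = 0.0858, 0.0885 and 0.0617 by edgeR). It was the 1 called gene of 28 matrix proteases and inhibitors tested (median -0.0461). On the same list SERPINE2 and the membrane serine protease ST14, matriptase, also had all 8 mutant wells below WT, as did 1.14% of all genes. SERPINE2 averaged 61.6 CPM in WT and 50.4 in the mutant wells (log2 change -0.29, adjusted p = 0.251 by edgeR). ST14 was at 140.1 to 145 CPM in WT and 96.8 to 132 in the mutant wells (log2 change -0.26 ± 0.08 SE, adjusted p = 0.309 by edgeR). Outside the list, the calpain gene CAPN8 (ENSG00000203697; chromosome 1, 223538007 to 223665734) was at 7.63, 8.70, 9.22 and 7.18 CPM in WT and 2.70 to 5.37 CPM (median 5.14) in the 8 mutant wells (log2 change -0.82 ± 0.15 SE, adjusted p = 0.062 by edgeR). The serine protease inhibitor gene SERPINB7 (ENSG00000166396; chromosome 18, 63752935 to 63805376) was the 1 higher gene among the 13 named next by p, at 4.03 to 5.36 CPM in WT and 5.59 to 9.18 in the mutant wells (log2 change 0.71 ± 0.14 SE, adjusted p = 0.0765 by edgeR).

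The eighth call, GPR22 (ENSG00000172209; chromosome 7, 107470018 to 107475659), an orphan G protein-coupled receptor, lies below the level set for naming and was singled out after its values were seen. It had 25, 24, 57 and 33 counts in the WT wells, 139 in all. The 8 mutant wells held 8 counts together, at most 4 in 1 well and 0 in 5 of them. The 4 T288P+GDF11 wells held 3. In CPM it was 0.624 to 1.28 in WT and 0 to 0.0877 in the mutants (adjusted p = 0.0066 by edgeR). Genes with 1 and with 2 counts were about equally frequent in every library (ratio 0.974 to 1.10), so both mates of a pair may have been counted, and these counts and the library totals may overstate the number of fragments. Counts this low give no usable fold. Of 13 tested genes within 500 kb, 0 were called and 0 had separated wells. COG5, a Golgi complex subunit gene, had 115 CPM in WT and 119 in the mutants. The transcript was present in the WT line and at or near 0 in both mutant lines, so here too allele and line cannot be told apart.

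Below the threshold, 13 genes had an adjusted p from 0.05 to 0.1 by edgeR, 2 higher and 11 lower. All 13 passed with DESeq2 and all wells, from an adjusted p of 0.000114 for CAPN8 to 0.00136 for KIAA1671. DESeq2 called 0.721% of all genes. The higher ones were SERPINB7 and TRIM16L, a tripartite motif gene whose wells overlapped, at 18.2 to 27.0 CPM in WT and 26.4 to 33.6 in the mutant wells (log2 change 0.48 ± 0.09 SE, adjusted p = 0.0699 by edgeR). Receptors stood among the lower ones. GABRP (ENSG00000094755; chromosome 5, 170763350 to 170814047), the pi subunit of the GABA-A receptor, was at 17.9, 17.9, 20.9 and 16.4 CPM in WT and 8.43 to 15.8 CPM (median 11.4) in the 8 mutant wells (log2 change -0.67 ± 0.12 SE, adjusted p = 0.0608 by edgeR). ERBB2 (ENSG00000141736; chromosome 17, 39687914 to 39730426), the HER2 receptor kinase, was at 32.4, 34.7, 33.5 and 33.4 CPM in WT and 21.2 to 30.1 CPM (median 25.3) in the 8 mutant wells (log2 change -0.39 ± 0.08 SE, adjusted p = 0.0811 by edgeR). It shares 7.41% of its exon bases with genes on the other strand. Of 25 tested genes of EGF receptor signalling and ERK feedback, 0 were called and 19 were negative (median -0.166), and ERBB2, its partner ERBB3 and the ligand gene EREG had all 8 mutant wells below WT, as did 1.14% of all genes. EREG was at 201 to 266 CPM in WT and 128 to 192 in the mutant wells (log2 change -0.43 ± 0.10 SE, adjusted p = 0.152 by edgeR). ERBB3 was at 60.9 to 71.3 CPM in WT and 50.5 to 58.9 in the mutant wells (log2 change -0.28 ± 0.08 SE, adjusted p = 0.293 by edgeR). NOTCH3 was at 22.5, 19.0, 21.0 and 14.0 CPM in WT and 8.82 to 14.1 CPM (median 11.9) in the 8 mutant wells, and the lowest WT well lay just inside the mutant range (log2 change -0.68 ± 0.13 SE, adjusted p = 0.062 by edgeR). NOTCH1 was at 24.7 to 28.7 CPM in WT and 16.8 to 24.3 in the mutant wells (log2 change -0.39 ± 0.09 SE, adjusted p = 0.152 by edgeR). The Notch list, receptors, ligands and targets, had 11 of 13 members negative and a median of -0.202, with 0 called.

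The other genes named next by p covered several roles. BCL9L, a coactivator of beta-catenin, was at 132 to 146 CPM in WT and 97.7 to 123 in the mutant wells (log2 change -0.36 ± 0.07 SE, adjusted p = 0.062 by edgeR). LMTK2, a membrane-anchored kinase, was at 35.6 to 41.8 CPM in WT and 26.5 to 31.7 in the mutant wells (log2 change -0.41 ± 0.08 SE, adjusted p = 0.0621 by edgeR). The efflux transporter gene ABCC3 was at 76.9 to 94.1 CPM in WT and 57.9 to 76.6 in the mutant wells (log2 change -0.40 ± 0.08 SE, adjusted p = 0.0674 by edgeR). LIMCH1, a LIM-domain protein of actin stress fibres, was at 23.2 to 26.6 CPM in WT and 16.4 to 20.5 in the mutant wells (log2 change -0.43 ± 0.08 SE, adjusted p = 0.062 by edgeR). KIAA1671 was at 107 to 116 CPM in WT and 51.5 to 89.2 in the mutant wells (log2 change -0.61 ± 0.12 SE, adjusted p = 0.0928 by edgeR), and its M452I wells ran from 51.5 to 89.2 CPM, a wide spread. CCSAP, a protein of centrioles and the spindle, was at 56.5 to 65.3 CPM in WT and 42.4 to 51.5 in the mutant wells, and TFCP2L1 at 303 to 370.5 CPM in WT and 199.7 to 258 in the mutant wells (adjusted p = 0.12 by edgeR for both). The wells of each of these 7 genes were separated, and the means were 1.24- to 1.52-fold lower. All 7 passed with DESeq2 and all wells (adjusted p up to 0.00287, for TFCP2L1).

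Whether the alleles differed was tested in the same model. Of the 8 called genes, 0 differed between M452I and T288P, also without adjustment. For PADI2 the log2 difference of M452I from T288P was 0.24 (95% interval -0.06 to 0.54), for PADI1 0.29 (-0.17 to 0.74), and for MYH14 0.07 (-0.19 to 0.34). For TGFBI it was 0.12 (-0.07 to 0.30) and for IL1B -0.06 (-0.31 to 0.18). These intervals include 0 and reach 0.74 for PADI1, so they do not show that the alleles act alike. Without M452I replicate 4 and T288P replicate 1 the comparison of the alleles changed: 2420 genes were called between them (14.1%), 1529 higher and 891 lower in M452I. Of the 8 genes 1 was then among them, IL1B, lower in M452I than in T288P (log2 difference -0.27, adjusted p = 0.0461 by edgeR). TGFBI had a difference of 0.0022 (adjusted p = 0.991) and PADI2 one of 0.29 (0.244). Against WT alone, M452I had 3 of the 8 genes called (0.0238% of all genes were) and T288P 7 (0.0417%), comparisons that share the WT wells. GPR22 was called for neither allele alone (adjusted p = 0.141 and 0.0912 by edgeR). With all wells 1 gene was called between the alleles (0.00596%), the pseudogene SMPD4BP, which was at 8.76 ± 1.54 CPM in WT, 3.86 ± 0.730 in M452I and 8.78 ± 0.110 in T288P (SD, n = 4 each). A second entry of that symbol (ENSG00000152117) ran the other way, at 0.266 ± 0.378 CPM in WT, 3.83 ± 2.16 in M452I and 0.537 ± 0.642 in T288P. Summed, both entries gave 9.02 ± 1.17, 7.70 ± 1.58 and 9.32 ± 0.614 CPM, with overlapping SDs, so reads may be split between copies and the call is uncertain. In the first entry the outlying wells stood with their own lines, at 3.47 CPM in M452I replicate 4 and 8.80 in T288P replicate 1. For KRT8 they did not. M452I replicate 4 was at 277 CPM and the rest of its line at 667 to 742. T288P replicate 1 was at 708 CPM and the rest of its line at 389 to 406. Why these wells stood apart was not tested.

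**Figure D3:**
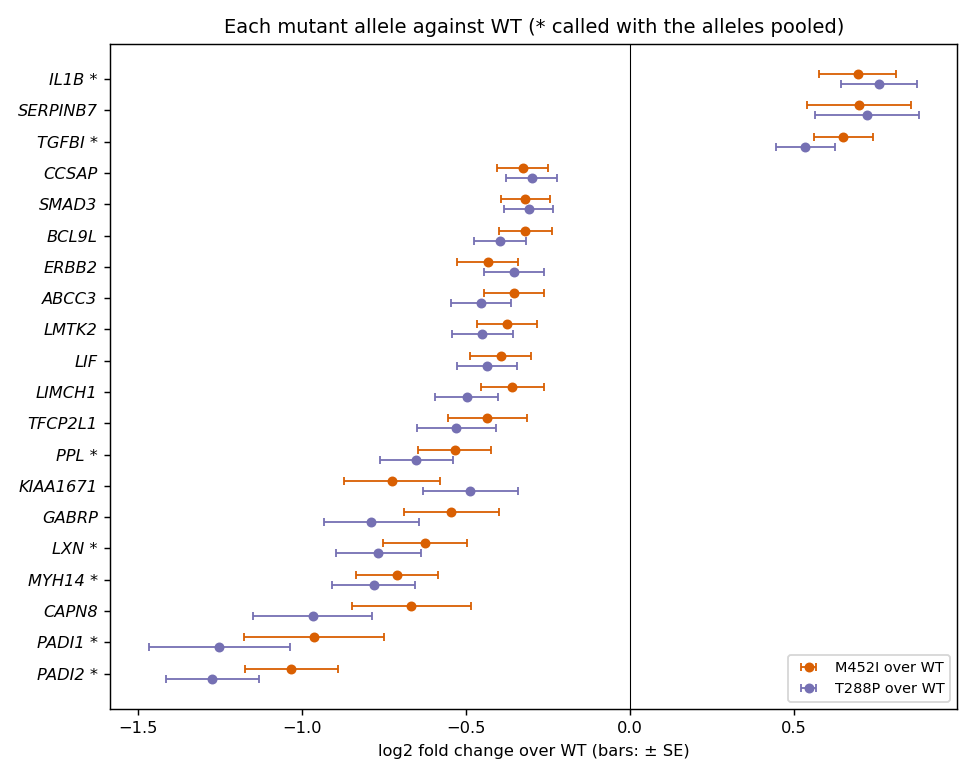
Log2 fold change of each allele over WT (points, with bars of 1 SE) for the 20 genes named by the rule, an asterisk marking the 7 called with the alleles pooled. Both alleles lie on the same side of 0 for every gene, which the choice of genes with separated wells fixes.

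The T288P+GDF11 wells show where these genes stood when the mature ligand was supplied to 1 of the mutant lines. They share that line with the mutant group, so their levels are given as a description. GDF11 itself went with many changes: against untreated T288P edgeR called 2174 genes (12.9%), 851 higher and 1323 lower, and the 4 treated wells lay outside the range of the 8 mutant wells for 12.5% of all genes. For 3 of the 8 called genes, PADI1, MYH14 and PPL, all 4 treated wells lay beyond the 8 mutant wells, further from WT. PADI1 ran from 1.00 to 1.49 CPM with GDF11, MYH14 from 6.86 to 8.43 and PPL from 27.1 to 34.2. For the other 5 all treated wells lay outside the WT range and their range overlapped that of the mutants. The levels of PADI2 were 5.83 to 6.59 CPM, those of TGFBI 107 to 119 and those of IL1B 104 to 119.8. LXN, at 9.15 to 13.0 CPM, came near the lowest WT well, 13.2. Over the 20 genes named by the rule, 8 lay beyond the mutant wells, 11 overlapped them, and 1, GABRP, lay above WT, at 27.4 to 37.4 CPM. Of all 274 genes whose mutant wells were separated from WT, 102 (37.2%) lay beyond the mutant wells, 130 (47.4%) overlapped them outside WT and 5 (1.82%) lay on the other side of WT. The remaining 37 (13.5%) fell in none of these classes. KRT5 was among them, at 1660 to 1856 CPM with GDF11, which reached the WT range, 1848 to 2118 CPM. SMAD3 was among the 8 of 20 beyond the mutant wells, at 83.0 to 97.1 CPM.

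With all wells, no gene of the basal, luminal and mitosis lists passed the edgeR test, and with DESeq2 1 basal gene was called lower. Without the 2 outlying wells the luminal transcription factor gene ELF3 (log2 change -0.49, adjusted p = 0.0114 by edgeR) and the basal keratin gene KRT15 (-0.30, adjusted p = 0.0420) were called lower. With the ribosomal share as a covariate 5 of 21 basal genes were called higher, and 4 of 17 luminal and 2 of 26 mitosis genes lower. That fit called 454 of all 16790 genes tested (2.7%), 206 higher and 248 lower. The basal keratin KRT5 was at 2118, 1848, 2039 and 1929.9 CPM in WT and 2207 to 2606 CPM (median 2258) in the 8 mutant wells, separated but not called (log2 change 0.22 ± 0.07 SE, adjusted p = 0.377 by edgeR). KRT14, its partner, overlapped (69.3 ± 11.8 and 84.2 ± 13.6 CPM; log2 change 0.28 ± 0.12 SE, adjusted p = 0.523 by edgeR). The luminal keratin KRT8 was at 615, 823, 558 and 751 CPM in WT and 277 to 742 in the mutants (log2 change -0.36 ± 0.22 SE, adjusted p = 0.669 by edgeR). M452I replicate 4 was the lowest well, and T288P replicate 1, at 708, the highest of its line. The basal list had a median of 0.0769 and the luminal list -0.099, with 0 of 21 and 0 of 17 called. VIM, the mesenchymal intermediate filament, was at 775 ± 34.2 and 831 ± 91.8 CPM (log2 change 0.10 ± 0.09 SE, adjusted p = 0.797 by edgeR). The proliferation marker MKI67 was at 73.1 ± 9.02 and 56.9 ± 6.65 (log2 change -0.36 ± 0.12 SE, adjusted p = 0.333 by edgeR). Of 26 genes of mitosis, 22 were negative and 0 called (median -0.11), and TOP2A, the topoisomerase that untangles chromosomes, was at 147 to 164 CPM in WT and 117 to 146 in the mutant wells. In these bulk cultures, fewer cells of a type and less RNA per cell cannot be told apart.

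All 50 cytosolic ribosomal protein genes had a positive log2 change (range 0.0205 to 0.168), as did all 36 nuclear respiratory chain genes. In both lists 0 genes were called and 0 had separated wells. The ribosomal median was 0.208 in M452I and 0.0187 in T288P, and the respiratory median 0.159 and 0.0215. The ribosomal share of counts ran from 7.90% to 9.15% in WT. In the M452I line it was 7.26% in replicate 4 and 9.86% to 10.1% in the rest, and in the T288P line 9.53% in replicate 1 and 8.28% to 8.61% in the rest. With that share as a covariate edgeR called 454 genes, 206 higher and 248 lower, and the same 8 were among them (2.7% of genes). In that fit the medians were -0.0722 for the ribosomal list and -0.0626 for the respiratory list. The share is the summed counts of the same 50 ribosomal genes. The covariate therefore takes up their shift by construction, and their median in that fit is no separate result.

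**Figure D4:**
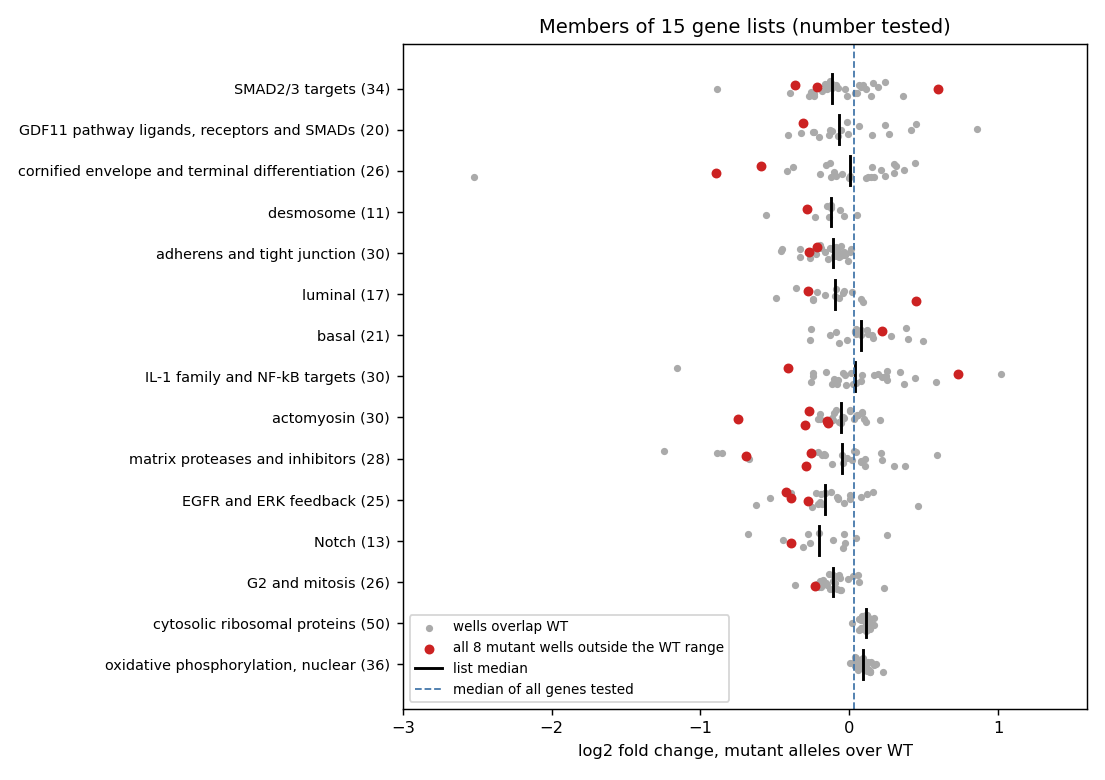
Log2 fold change of both mutant alleles over WT for the tested members of 15 gene lists, 1 point a gene, with the list median as a black bar and the median of all genes as a dashed line. Red points have all 8 mutant wells outside the WT range, and the ribosomal and respiratory lists sit just above 0 with none.

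Without M452I replicate 4 and T288P replicate 1, all 6 remaining mutant wells lay below WT for 327 genes (1.95%) and above it for 174 (1.04%). All 13 genes named next by p passed then, from an adjusted p of 0.00222 for BCL9L to 0.0487 for TFCP2L1 by edgeR. By list, 3 of 25 EGF receptor and ERK feedback genes, 3 of 30 actomyosin genes and 2 of 13 Notch genes were called lower, where 0.691% of all genes were called in either direction. Of 30 interleukin-1 family genes and NF-kB targets, IL1B and the alarmin gene IL33 (log2 change 0.55, adjusted p = 0.0041 by edgeR) were called higher and LIF lower. The ribosomal and respiratory lists had 0 calls. CDH1 (adjusted p = 0.0578 by edgeR) and KRT5 (0.0779) missed the threshold, while NECTIN4, ELF3 and KRT15, given above, passed. Among genes singled out after their values were seen, EREG (adjusted p = 0.0134 by edgeR), NOTCH1 (0.00736), NOTCH3 (0.00991), ST14 (0.0421) and TRIM16L (0.0237) passed, as did LTBP3, MYH9 and MYO1D. COL4A2, ACTN4, VCL, DSP, AFDN, ERBB3, SERPINE2, TOP2A, LCN2, KRT80 and SMPD4BP did not. The choice of these 2 wells was made with their position known.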

How the data were processed

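RNA of 16 wells was sequenced. The authors deposited 1 table of raw, unscaled read counts by gene. HISAT2 and StringTie 2.2.1 with GRCh38 were used per the submitters' processing notes. The counter, its annotation and its strand setting were not given in the sources used here, so reads of genes that overlap on opposite strands cannot be told apart.

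Counts were tested in R 4.3.3 with edgeR 4.0.16: TMM scaling, filterByExpr (minimum count 10), robust quasi-likelihood F test. All 16 libraries entered 1 model of 4 groups, and the contrast was the mean of M452I and T288P minus WT. P-values were adjusted by Benjamini-Hochberg over 16790 genes, with calls at an adjusted value under 0.05. SE is the absolute log2 fold change over the root of F. All CPM levels are scaled with the TMM factors. Promoter sequences are from RefSeq. The procedure was tested on simulated data.

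The rule for naming took PCSK5, GDF11, 6 markers, called genes with separated wells whose higher group averaged 3 CPM or more, and then the genes with the smallest p that met these conditions, up to 20. The genes singled out after their values were seen are GPR22, SMPD4BP, LTBP3, COL4A2, MYH9, ACTN4, VCL, MYO1D, DSP, AFDN, EREG, ERBB3, NOTCH1, NOTCH3, ST14, SERPINE2, TOP2A, LCN2, KRT80, TRIM16L, NECTIN4, ELF3, KRT15, IL33 and the neighbours SDHB and COG5. The comparison and the gene lists were chosen with earlier results of these data known. P-values measure the spread between wells of a line. Alternatives used DESeq2 1.42.0, limma-voom (limma 3.58.1), other filters and scalings, fewer groups, a replicate block, a ribosomal covariate and fewer wells. The leukocyte marker list is not reported here.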

Additional observations from a re-analysis of the deposited data

Results flagged for a closer look

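Of 188 groups of 4 wells examined for the genes named, 14 held a well far from the other 3, where chance gives about 1 in 20. In the M452I line the well was replicate 4 for KRT8 (277 CPM, lowest), MKI67 (67.1 CPM, highest), ST14 (96.8 CPM, lowest) and LCN2 (8.08 CPM, highest). It was M452I replicate 3 for GPR22 (0.0877 CPM, highest) and M452I replicate 2 for SMPD4BP (4.95 CPM, highest). In the T288P line it was replicate 1 for BCL9L (123 CPM, highest) and KRT8 (708 CPM, highest). In WT it was replicate 4 for TOP2A (164 CPM, highest). Among the T288P+GDF11 wells it was replicate 3 for GDF11 (5.95 CPM, lowest), replicate 1 for SMPD4BP (8.24 CPM, highest), replicate 2 for VCL (155 CPM, lowest) and ST14 (92.4 CPM, highest), and replicate 4 for LCN2 (6.35 CPM, lowest). None of these wells belongs to PADI2, PADI1, MYH14, LXN, PPL, TGFBI or IL1B.

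SMPD4BP differed between M452I and T288P by a test of the difference itself (log2 fold change -1.18, adjusted p = 0.00513 by edgeR). The second entry of that symbol ran the other way, at 3.83 ± 2.16 CPM in M452I and 0.537 ± 0.642 in T288P (SD, n = 4 each), and both entries summed gave 7.70 ± 1.58 and 9.32 ± 0.614 CPM.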

How the results depend on the processing

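Over 616 combinations of the 28 genes named by the rule and an alternative, 80 passed the threshold newly, 10 lost it, 0 turned and the rest kept their direction and side of it. PADI2, MYH14 and TGFBI were called in all 22 of these alternatives, and GPR22 in the 20 that gave it an adjusted p. The combinations and the 22 leave out the run at a fold change of at least 2. In that run PPL, MYH14, IL1B, LXN and TGFBI lost their calls. The count of called genes was 121 with DESeq2 (29 higher, 92 lower), 13 with limma-voom (11 lower), 16 with RLE scaling (14 lower), 14 without a low-count filter (12 lower) and 3 at a fold change of at least 2 (0 higher, 3 lower). It was 119 without M452I replicate 4 and T288P replicate 1 (26 higher, 93 lower) and 454 with the ribosomal covariate (206 higher, 248 lower). Leaving out 1 well gave 4 to 28 calls, 1 to 4 higher and 3 to 24 lower; the lowest count was without WT replicate 2 and the highest without M452I replicate 4. Between the alleles 0 genes were called in the fit of 3 groups, 6 with DESeq2 and 2420 without the 2 wells. The cause of these shifts was not tested.

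The wells share replicate numbers across groups. With the replicate block 7 genes were called and PADI1 was lost. Same-numbered wells of different groups had correlations of -0.197 to 0.174 (median -0.020) in their deviations from the group means. For wells of different number they were -0.359 to 0.246 (median 0.0052), so by this measure same-numbered wells were no more alike. Whether the numbers mark a shared batch was not tested. With 1 line per allele, more wells would not separate allele from line.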
